A study of Mus musculus with 32 samples.

Results

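The SLAM family (signaling lymphocytic activation molecule family) is a set of immunoglobulin-like receptors on blood cells. The 7 genes described here are 6 receptors, Slamf1, Slamf6, Slamf7, Ly9, Cd48 and Cd84, and the adaptor gene Sh2d1a, of the 46517 genes in the table. They were selected by name. Which names to take was chosen with earlier values of these libraries in view, and the low level of Slamf6 in skin against spleen was among the values known. Every comparison with skin or spleen is therefore a description with no test. The 8 comparisons among the other 6 groups were tested, although their values were not hidden from the choice either.

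Most SLAM receptors bind the same receptor on a neighbouring cell. CD48 is held in the membrane by a lipid anchor and binds CD244, and in mice also CD2. The tails of most of the other receptors carry tyrosine switch motifs that the adaptor SAP, the product of Sh2d1a, binds. SAP then recruits the kinase Fyn, and without SAP the same motifs bind phosphatases that dampen the signal. In T cells, SLAM receptors and SAP are known for long contacts with B cells and for killing of target cells, and loss of SAP causes X-linked lymphoproliferative disease in humans. The Slamf6 protein, Ly108 in mice, is used as a surface mark of stem-like CD8 T cells in chronic infection and tumors.

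Bulk RNA was sequenced from sorted CD8+ Thy1.1+ Pmel T cells, whose transgenic receptor recognizes a melanocyte antigen, in 8 groups of 4 libraries. The skin, liver, lung and lymph node memory groups come from mice 45 days after tumor surgery. The tumor group holds tumor-infiltrating cells, the spleen group spleen cells, the day 12 group cells of the tumor-draining lymph node, and the naive group naive cells from spleen. Every sample, the naive ones included, is labelled as C57BL/6, 16 weeks of age and melanoma-associated vitiligo, an autoimmune loss of skin pigment that follows melanoma. The sources used here give no time for the naive, spleen and tumor groups, nor the event that day 12 counts from. All cells carry 1 transgenic T cell receptor, so they are a model of 1 antigen response. No source ties a library to its own animal, and p-values measure the spread between libraries only.

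Values are TPM, transcript shares per length that add up to the same total in each library, so a level can be set beside another gene's level. Read counts are not held in the table, and depth and counting error are unknown. All 32 libraries held the defining markers of the labelled cell type, with Cd3e at 155 to 1193.5 TPM, Cd8a at 57.0 to 1292.5 TPM and Cd4 at no more than 11.02 TPM. The 16 T cell identity genes summed to 3318 to 28135 TPM in liver, against 37668 to 43700 TPM in naive cells. In 6 libraries, skin 4, tumor 4, liver 2, 3 and 4 and spleen 4, the sum was under 0.5 of the median. Liver 2 stood apart most, with 10732 genes above 0 and with Slamf6, Ly9 and Sh2d1a listed at 0. RNA of other cell types differed between libraries. Myeloid genes summed to 403 to 8703 TPM in skin and 1744 to 11804 TPM in lung. They summed to 923 to 9523 TPM in spleen and 1994 to 20592 TPM in liver, against 95.5 to 120 TPM in naive libraries. Keratinocyte genes summed to 443 to 6585 TPM in skin. Hepatocyte genes summed to 856 to 34484 TPM in liver and to 10009 TPM in lung 3. The part of this RNA in the levels of the members was not tested.

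The 6 receptor genes lie side by side in 364.5 kb of chromosome 1 (build GRCm38, which mm10 denotes), at 171588624 to 171953170, in the order Ly9, Slamf7, Cd48, Slamf1, Cd84, Slamf6. Ly9 and Slamf7 are on the minus strand and the other 4 on the plus strand. Sh2d1a lies on the X chromosome at 42502453 to 42529330. Promoter windows from RefSeq (GRCm38.p6), from 250 bases before to 50 bases after a start that RefSeq gives, exist here for 5 of the 7 members. These starts differ from the GENCODE gene ends: the Slamf6 window ends before the GENCODE start at 171917515, and the Slamf7 window lies inside the GENCODE gene, whose outermost start is at 171653035. The windows of Slamf6 and Slamf7 are shown because these genes had the widest spans across the groups, and that of Cd48 because it rose together with Slamf7 in the day 12 lymph node. Capitals mark the matched motifs.
Slamf6, chr1:171917212-171917511, plus strand: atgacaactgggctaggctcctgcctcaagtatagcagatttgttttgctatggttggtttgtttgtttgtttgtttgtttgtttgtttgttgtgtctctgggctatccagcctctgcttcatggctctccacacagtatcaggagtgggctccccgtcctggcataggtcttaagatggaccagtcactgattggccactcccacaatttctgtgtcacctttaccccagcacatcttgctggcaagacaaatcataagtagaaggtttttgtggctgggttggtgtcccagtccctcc
Slamf7, chr1:171648950-171649249, minus strand: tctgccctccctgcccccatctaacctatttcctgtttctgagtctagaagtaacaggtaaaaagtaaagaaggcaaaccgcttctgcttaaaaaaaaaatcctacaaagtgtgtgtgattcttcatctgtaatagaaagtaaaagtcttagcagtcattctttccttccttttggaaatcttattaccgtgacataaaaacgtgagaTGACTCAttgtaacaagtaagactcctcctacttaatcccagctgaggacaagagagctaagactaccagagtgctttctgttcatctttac
Cd48, chr1:171681742-171682041, plus strand: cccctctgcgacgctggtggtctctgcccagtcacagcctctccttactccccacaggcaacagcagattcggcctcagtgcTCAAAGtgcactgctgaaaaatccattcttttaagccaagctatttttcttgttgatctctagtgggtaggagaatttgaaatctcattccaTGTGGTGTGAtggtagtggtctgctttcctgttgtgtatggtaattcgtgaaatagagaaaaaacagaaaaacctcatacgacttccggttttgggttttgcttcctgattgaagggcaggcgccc
Both strands were searched for motifs of 5 factor families that T cells use. The AP-1 motif TGANTCA occurs in 7.81% of 32851 promoters of this length, the Runx motif TGTGGT in 16.8%, the T-box motif GGTGTGA in 3.98%, the TCF and LEF motif CTTTGA in 16% and the interferon response motif in 3.44%. The Slamf7 window holds 1 match, an AP-1 motif at -42 from the start. The Cd48 window holds a Runx motif at -76 that overlaps a T-box motif at -73, and the TCF and LEF motif at -168 on the other strand. The Slamf6 window, like that of Slamf1, holds no match to these letters. The Cd84 window holds an AP-1 motif at -229 and a Runx motif at -45. A match is a stretch of letters, and binding was not measured.

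**Figure D1:**
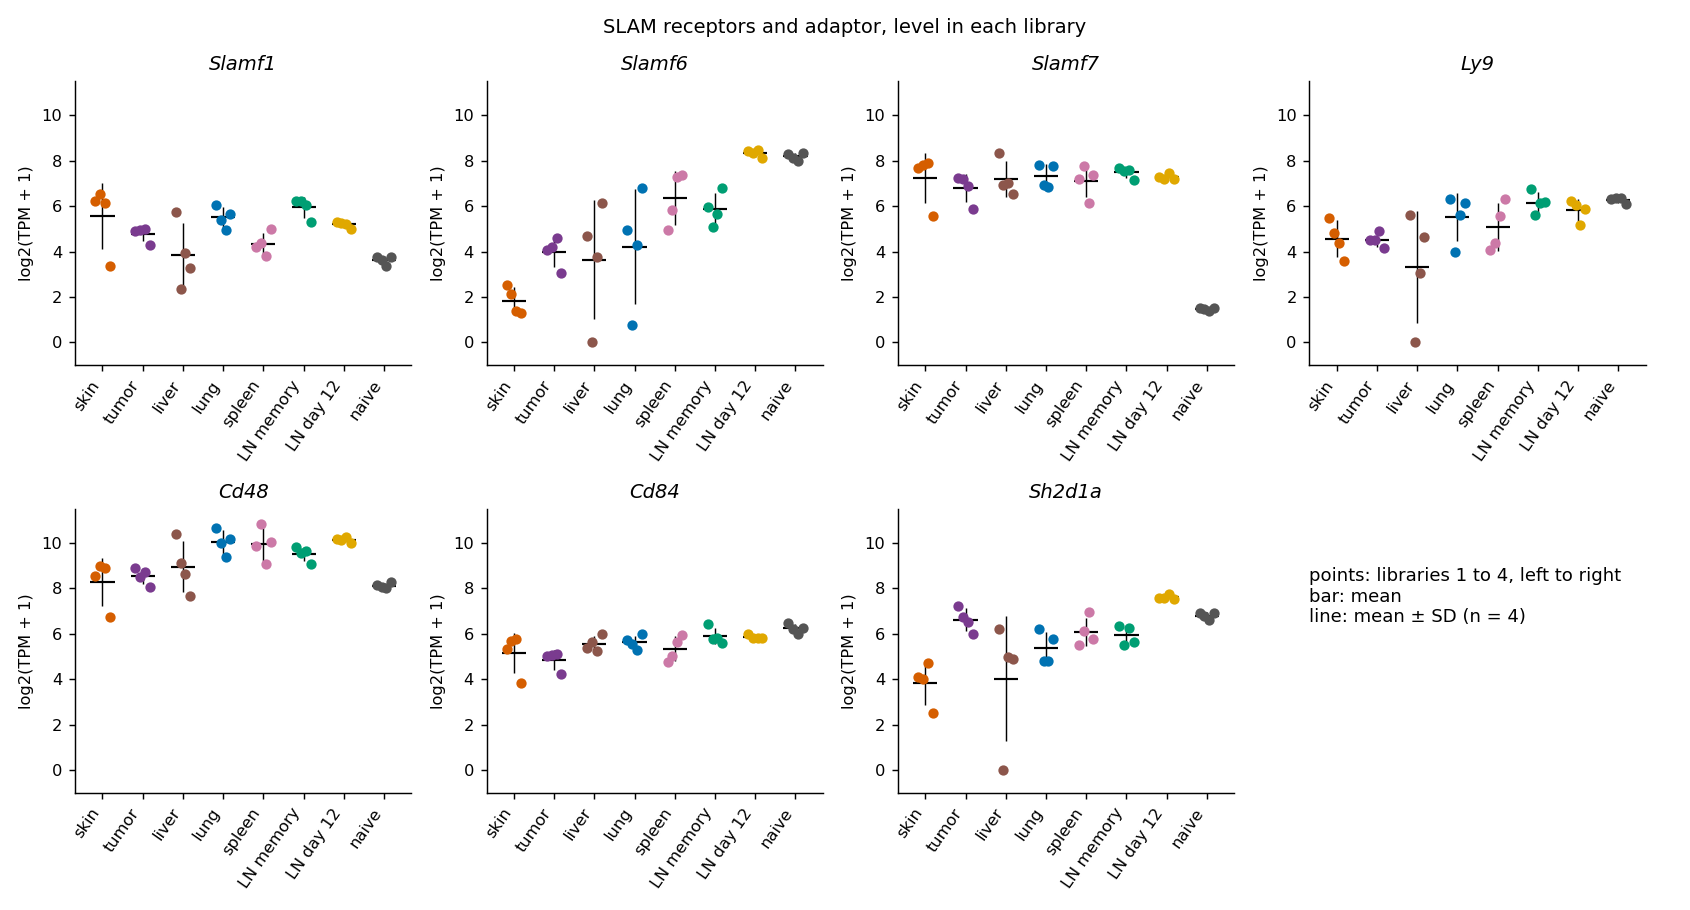
Level of each of the 7 genes as log2(TPM + 1) in each of the 32 libraries, by group, with points for libraries 1 to 4 from left to right, a bar for the mean and a line for the SD (n = 4). Slamf6 is under 5 TPM in all 4 skin libraries, and Slamf7 is at 46.3 TPM or more in 28 libraries, against 1.58 to 1.90 TPM in the 4 naive ones.

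Slamf6 and Slamf7 had the widest spans of the 7 genes, and they were lowest in different groups. The highest group mean of Slamf6, in the day 12 lymph node, was 114.5 times the lowest, in skin. The highest group mean of Slamf7, in lymph node memory cells, was 101.2 times the lowest, in naive cells. The ratio of highest to lowest group mean was 12.7 for Sh2d1a, 5.50 for Slamf1, 4.06 for Cd48, 3.90 for Ly9 and 2.61 for Cd84.

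Slamf6 encodes the self-binding receptor Ly108. It was measured at 4.83, 3.33, 1.58 and 1.48 TPM in skin, at 15.6, 17.4, 23.4 and 7.43 TPM in tumor, and at 24.8, 0, 12.5 and 70.0 TPM in liver. Lung libraries had 29.5, 0.70, 18.8 and 111.4 TPM, spleen libraries 30.1, 55.9, 153.5 and 164.6 TPM, and lymph node memory libraries 60.6, 33.0, 48.7 and 109.6 TPM. Day 12 lymph node libraries had 337, 319, 356 and 272.5 TPM and naive libraries 317, 276, 252 and 318 TPM. The day 12 and naive libraries were thus above all 24 others, and their ranges overlapped each other. All 4 skin libraries were below all 4 tumor libraries. Between these ends, the ranges of spleen, lymph node memory, lung, liver and tumor each overlapped with the next, and on the log2 scale liver, lung and spleen had the widest spreads.

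Slamf7 encodes the self-binding receptor CRACC, known from natural killer and plasma cells. It was measured at 202, 224, 236 and 46.3 TPM in skin, at 148, 146, 118 and 58.0 TPM in tumor, and at 319, 119, 129.9 and 91.7 TPM in liver. Lung libraries had 223, 121, 113 and 219 TPM, spleen libraries 146.5, 214, 68.6 and 163 TPM, and lymph node memory libraries 204.5, 186, 189 and 140.0 TPM. Day 12 lymph node libraries had 154, 145, 172 and 145 TPM and naive libraries 1.85, 1.78, 1.58 and 1.90 TPM. The other 7 groups overlapped with their neighbours in the order of means, and their lowest library was at 46.3 TPM, against 1.90 TPM in the highest naive library.

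The Slamf6 level divided by the Slamf7 level put each library on 1 scale. Skin libraries lay at 0.0239, 0.0149, 0.00669 and 0.0320 and tumor libraries at 0.105, 0.119, 0.198 and 0.128. Lymph node memory libraries lay at 0.297, 0.177, 0.258 and 0.783. Day 12 libraries lay at 2.19, 2.20, 2.07 and 1.88, and naive libraries between 154.9 and 171.3. Skin, tumor, day 12 and naive libraries did not overlap with each other on this ratio. Lymph node memory libraries overlapped with tumor, and spleen (0.205 to 2.24), lung (0.00580 to 0.510) and liver (0 to 0.764) spread more widely. Slamf6 and Slamf7 had the widest spans of the members, and ratios of other gene pairs were not computed.

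**Figure D2:**
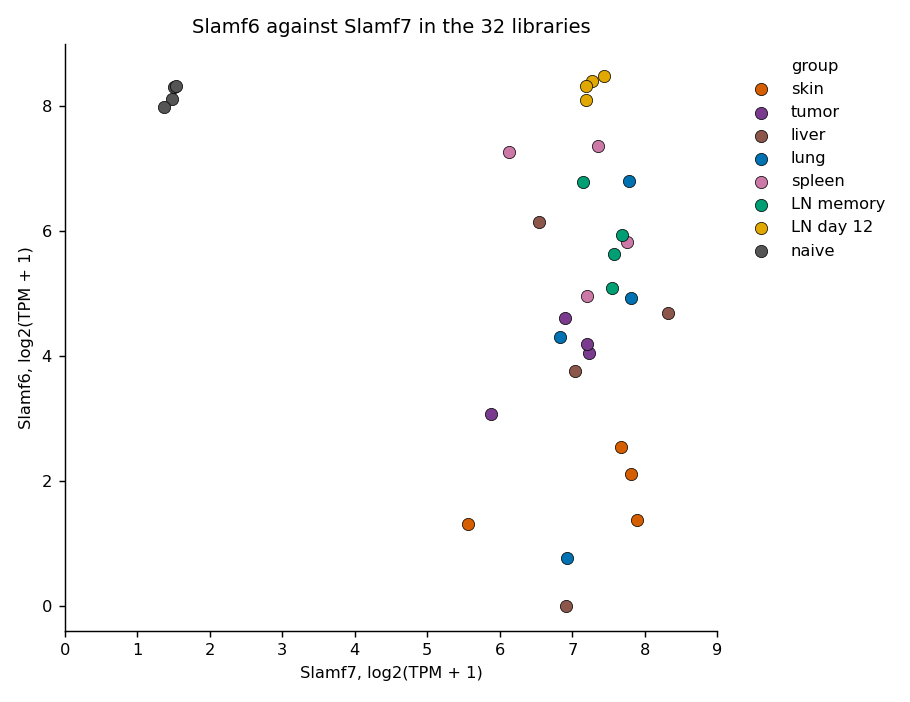
Slamf6 against Slamf7 in the 32 libraries, both as log2(TPM + 1) and coloured by group. Skin libraries have Slamf7 at 46.3 to 236 TPM with Slamf6 at 1.48 to 4.83 TPM, day 12 lymph node libraries are high in both, and naive libraries are high in Slamf6 alone.

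Slamf1 encodes SLAM itself, a self-binding receptor found on activated T cells. It was measured at 72.8, 91.0, 70.2 and 9.41 TPM in skin, at 28.8, 29.8, 30.7 and 18.6 TPM in tumor, and at 52.2, 4.18, 14.5 and 8.59 TPM in liver. Lung libraries had 64.1, 40.3, 30.1 and 48.9 TPM, spleen libraries 17.6, 19.5, 12.98 and 30.6 TPM, and lymph node memory libraries 74.0, 74.0, 64.5 and 37.9 TPM. Day 12 libraries had 38.6, 37.6, 36.0 and 30.9 TPM and naive libraries 12.5, 11.2, 9.39 and 12.5 TPM. Of neighbours in the order of means, only the day 12 and tumor groups did not overlap, with day 12 above.

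Cd48, the ligand of CD244, had the highest level of the members in 7 of 8 groups, all but the naive one, where Slamf6 was higher. It was measured at 371, 505, 475 and 106 TPM in skin, at 474, 361, 419 and 268 TPM in tumor, and at 1334, 550.2, 389.5 and 204 TPM in liver. Lung libraries had 1613, 1015, 655 and 1152 TPM, spleen libraries 925, 1811, 535 and 1034 TPM, and lymph node memory libraries 887, 760.4, 791 and 535.5 TPM. Day 12 libraries had 1145, 1124, 1217 and 1029 TPM and naive libraries 284, 269, 254 and 305 TPM. The day 12 libraries were the tightest of the high groups, and no pair of neighbours in the order of means was free of overlap.

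Ly9 and Cd84, both self-binding receptors, had the narrowest spans and their highest means in naive cells. Ly9 averaged 25.5 ± 14.1 TPM in skin, 22.2 ± 4.94 in tumor, 53.1 ± 28.7 in lung, 40.2 ± 29.1 in spleen cells, 73.1 ± 23.97 in lymph node memory cells, 57.8 ± 16.7 in the day 12 lymph node and 77.0 ± 6.41 in naive cells (SD, n = 4 each). Its liver libraries had 47.9, 0, 7.42 and 23.7 TPM. Cd84 averaged 39.0 ± 18.2 TPM in skin, 28.7 ± 7.53 in tumor, 47.0 ± 11.3 in liver, 49.4 ± 9.75 in lung, 42.0 ± 16.2 in spleen cells, 60.7 ± 16.6 in lymph node memory cells, 56.9 ± 3.36 in the day 12 lymph node and 74.8 ± 9.96 in naive cells. Every pair of neighbours in either order of means overlapped.

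Sh2d1a, the gene of the adaptor SAP, was measured at 16.1, 15.3, 25.2 and 4.64 TPM in skin, at 149.7, 106.7, 90.1 and 62.6 TPM in tumor, and at 73.8, 0, 30.8 and 28.3 TPM in liver. Lung libraries had 71.9, 26.9, 27.2 and 52.8 TPM, spleen libraries 45.1, 68.9, 122 and 52.8 TPM, and lymph node memory libraries 81.2, 44.5, 74.4 and 48.4 TPM. Day 12 libraries had 189.8, 188.5, 213 and 183 TPM and naive libraries 119, 107, 96.4 and 119 TPM. The day 12 libraries were above all others, and the tumor libraries, which were low in Slamf6, overlapped with the naive ones in Sh2d1a.

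In cells of the day 12 tumor-draining lymph node against naive cells, Slamf7 and Cd48 rose, and no member was called lower. Slamf7 was higher by 5.80 ± 0.44 on the log2(TPM + 1) scale (SE, adjusted p = 8.11e-11, limma with Benjamini-Hochberg adjustment over 19738 genes), a scale that understates the change of a gene as low as Slamf7 in naive cells. Natural killer cell genes, 9 of 9 in the table, summed to 57.2 to 65.8 TPM in the day 12 lymph node and 3.65 to 10.6 TPM in naive cells, although Ncr1, which defines those cells, was at 0.015 ± 0.030 TPM in the day 12 lymph node and 0.225 ± 0.140 TPM in naive cells. Plasma cell genes, 6 of 6, summed to 116 to 131 TPM in the day 12 lymph node and 47.9 to 52.3 TPM in naive cells, and their part in the Slamf7 change was not tested. Cd48 was higher by 2.02 ± 0.45 (adjusted p = 0.00211). Slamf1 was higher in 4 of 4 libraries without overlap, by 1.57 ± 0.54, and missed the threshold (adjusted p = 0.0586), which it passed in 8 of 18 alternative settings. Cd84 lay lower in 4 of 4 libraries without overlap, at 54.5 to 61.9 TPM in the day 12 lymph node against 62.6 to 86.9 TPM in naive cells, with -0.38 ± 0.35 (adjusted p = 0.599), and passed in 3 of 18 settings. Slamf6 differed by 0.14 ± 0.92 with overlapping libraries. In all, 2 of 7 members were called, beside 11.1% of all genes tested, and the members' median change was 0.81 beside -0.19 over all genes.

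In lymph node memory cells against naive cells, Slamf7 and Slamf1 rose. Slamf7 was higher by 6.01 ± 0.44 (adjusted p = 4.09e-11) and Slamf1 by 2.32 ± 0.54 (adjusted p = 0.00573). Slamf6 lay below the naive libraries in 4 of 4 libraries, at 33.0 to 109.6 TPM in memory cells against 252 to 318 TPM in naive cells, with a change of -2.32 ± 0.92 that missed the threshold (adjusted p = 0.176). It passed in 4 of 18 settings, with an adjusted p of 0.00159 in a fit of these 2 groups alone. Cd48 differed by 1.39 ± 0.45 (adjusted p = 0.0588) and passed in 8 of 18 settings. Here 2 of 7 members were called, beside 6.52% of all genes.

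Lymph node memory cells against the day 12 lymph node gave no called member, beside 7.41% of all genes. At an unadjusted p under 0.05 there were 2 members and 4061 genes. Slamf6 differed by -2.46 ± 0.92 (adjusted p = 0.107), Sh2d1a by -1.67 ± 0.73 (adjusted p = 0.181) and Cd48 by -0.62 ± 0.45 (adjusted p = 0.489). For these 3 genes the 4 memory libraries lay under all 4 day 12 libraries. The share of all genes without overlap was not computed for this comparison. Slamf7 differed by 0.21 ± 0.44 with overlap. A fit of these 2 groups alone called 4 members, Slamf1, Slamf6, Cd48 and Sh2d1a, and so did weights per group. The number of all genes called changed with the setting too, from 816 to 9168, against 1463 as reported.

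RNA of B cells, which also carry Slamf6, Ly9 and Cd48, was present in unequal amounts. All 12 genes of the B cell list were in the table, and none was at 0 throughout a group. Their sum was 286 to 2553 TPM in lymph node memory libraries, 725 to 7125 TPM in spleen, 98.7 to 13982 TPM in lung and 9.71 to 1640 TPM in liver, against 167 to 204 TPM in day 12 and 848 to 983 TPM in naive libraries. In naive libraries the sum was mostly Ighm, at 863 ± 60.2 TPM, with Cd79a, a chain of the B cell receptor complex, at 4.42 ± 1.70 TPM. Library 4 had the highest Slamf6 and the highest B cell sum of its group in memory cells (2553 TPM), spleen (7125 TPM) and liver (1640 TPM). In lung, library 3 had the highest sum, 13982 TPM, of which 13754 TPM were Ighm, with Slamf6 at 18.8 TPM. Lung 4 had a sum of 2784 TPM with Slamf6 at 111.4 TPM. The B cell genes Cd79a, Cd79b and Ms4a1 were highest in lung 4 of the lung libraries, at 237, 180 and 68.7 TPM. Cd22 was highest in lung 1, at 23.2 TPM against 13.2 TPM in lung 4. In spleen, library 3 had nearly the Slamf6 level of library 4, at 153.5 and 164.6 TPM, with a B cell sum of 4132 TPM. The part of B cell RNA in these levels was not tested. In these bulk samples, fewer cells that express a gene and less of its RNA per cell cannot be told apart.

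In tumor-infiltrating cells against naive cells, Slamf7 rose, and Slamf6 and Cd84 fell. Slamf6 was lower by a log2 change of -4.20 ± 0.92 (adjusted p = 0.00167), at 15.9 ± 6.58 TPM in tumor and 291 ± 32.4 TPM in naive cells (SD, n = 4 each). Slamf7 was higher by 5.33 ± 0.44 (adjusted p = 3.49e-10), at 118 ± 42.2 TPM in tumor and 1.78 ± 0.141 TPM in naive cells. Cd84 was lower by -1.39 ± 0.35 (adjusted p = 0.00536), at 17.5 to 33.8 TPM in tumor against 62.6 to 86.9 TPM in naive cells. Ly9 also lay lower in 4 of 4 libraries, with -1.77 ± 0.72 (adjusted p = 0.0985). Sh2d1a differed by -0.17 ± 0.73 with overlapping libraries. The 3 called members stand beside 15.3% of all genes called.

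Against the day 12 lymph node, Slamf6 and Cd48 fell in tumor, beside 6.97% of all genes called. Slamf6 changed by -4.34 ± 0.92 (adjusted p = 0.00329). Cd48 changed by -1.60 ± 0.45 (adjusted p = 0.0261), at 381 ± 87.9 TPM in tumor and 1129 ± 77.2 TPM in the day 12 lymph node. Its call was lost without any 1 of the day 12 libraries or without tumor library 2, 3 or 4, with an adjusted p of up to 0.107. Of the 7 members, 6 lay in tumor below the day 12 lymph node without overlap, all but Slamf7. The share of all genes without overlap was not computed for the tested comparisons, so this count has no background. The members' median change was -1.004 beside 0.03 over all genes.

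T cell and B cell markers can be set beside the fall of Slamf6 in tumor. Per 1000 TPM of T cell identity genes, Slamf6 was at 0.615 ± 0.202 TPM in tumor, against 10.8 ± 1.05 TPM in the day 12 lymph node and 7.14 ± 0.292 TPM in naive cells. The B cell sum overlapped between tumor, at 150 to 291 TPM, and the day 12 lymph node, at 167 to 204 TPM. Its genes differed, since Ighm, at 82.6 ± 39.3 and 71.8 ± 7.66 TPM, and Ms4a1 overlapped. Cd79a was lower in tumor without overlap, at 1.37 ± 0.652 TPM against 22.2 ± 2.67 TPM in the day 12 lymph node. So were Cd79b, at 0.650 ± 0.270 against 26.6 ± 5.17 TPM, and Cd22, at 1.76 ± 1.25 against 21.2 ± 2.97 TPM. The part of B cell RNA in the fall of Slamf6 was not tested. Both calls of Slamf6 held in 18 of 18 alternative settings, among them the fit that left out tumor library 4 and the other 5 libraries with low T cell identity sums.

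Tumor against lymph node memory cells gave no called member, beside 7.7% of all genes. At an unadjusted p under 0.05 there were 4 members and 4349 genes. The nearest was Cd84, with -1.06 ± 0.35 (adjusted p = 0.0549). In tumor 5 members lay below memory cells without overlap, all but Slamf7 and Sh2d1a, a count that likewise has no share over all genes beside it. The count of called members came to 5 with the 2 groups alone or with weights per group, and to all 7 with array weights.

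Lung against lymph node memory cells gave no called member either, beside 0.461% of all genes. No member passed an unadjusted p of 0.05, which 1891 genes did. Adjusted p-values of the 7 members ran from 0.598 for Slamf6 to 0.93 for Slamf7, and every member's libraries overlapped. The change of Slamf6 was -1.66 ± 0.92 with 1 lung library at 0.70 TPM and another at 111.4 TPM.

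In liver against lymph node memory cells, Slamf1, Ly9 and Sh2d1a fell, beside 32.2% of all genes called and a median change of -0.63 over all genes. The log2 change was -2.11 ± 0.54 for Slamf1 (adjusted p = 0.00511), -2.83 ± 0.72 for Ly9 (adjusted p = 0.00498) and -1.91 ± 0.73 for Sh2d1a (adjusted p = 0.0458). The libraries of all 3 genes overlapped, and liver 2 lists Ly9 and Sh2d1a at 0. T cell identity genes summed to 3318 to 8257 TPM in liver libraries 2, 3 and 4 but to 28135 TPM in liver 1. Their myeloid sums were 16571 to 20592 TPM, against 1994 TPM in liver 1 and 367 to 887 TPM in the memory libraries. Hepatocyte genes summed to 10690, 3810 and 34484 TPM in liver 2, 3 and 4 and to 856 TPM in liver 1. In the memory libraries they summed to 0.27 to 39.5 TPM. The part of myeloid and hepatocyte RNA in the 3 calls was not tested. No member was called with liver 1 as the only liver library, which is then assumed to vary like the other groups, with T cell identity as a covariate, or with the 2 groups fitted alone. Without liver 1, 5 members were called, Slamf6 and Cd48 as well. The call of Sh2d1a was also lost without any 1 of the memory libraries or without liver 2, with an adjusted p of up to 0.363.

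**Figure D3:**
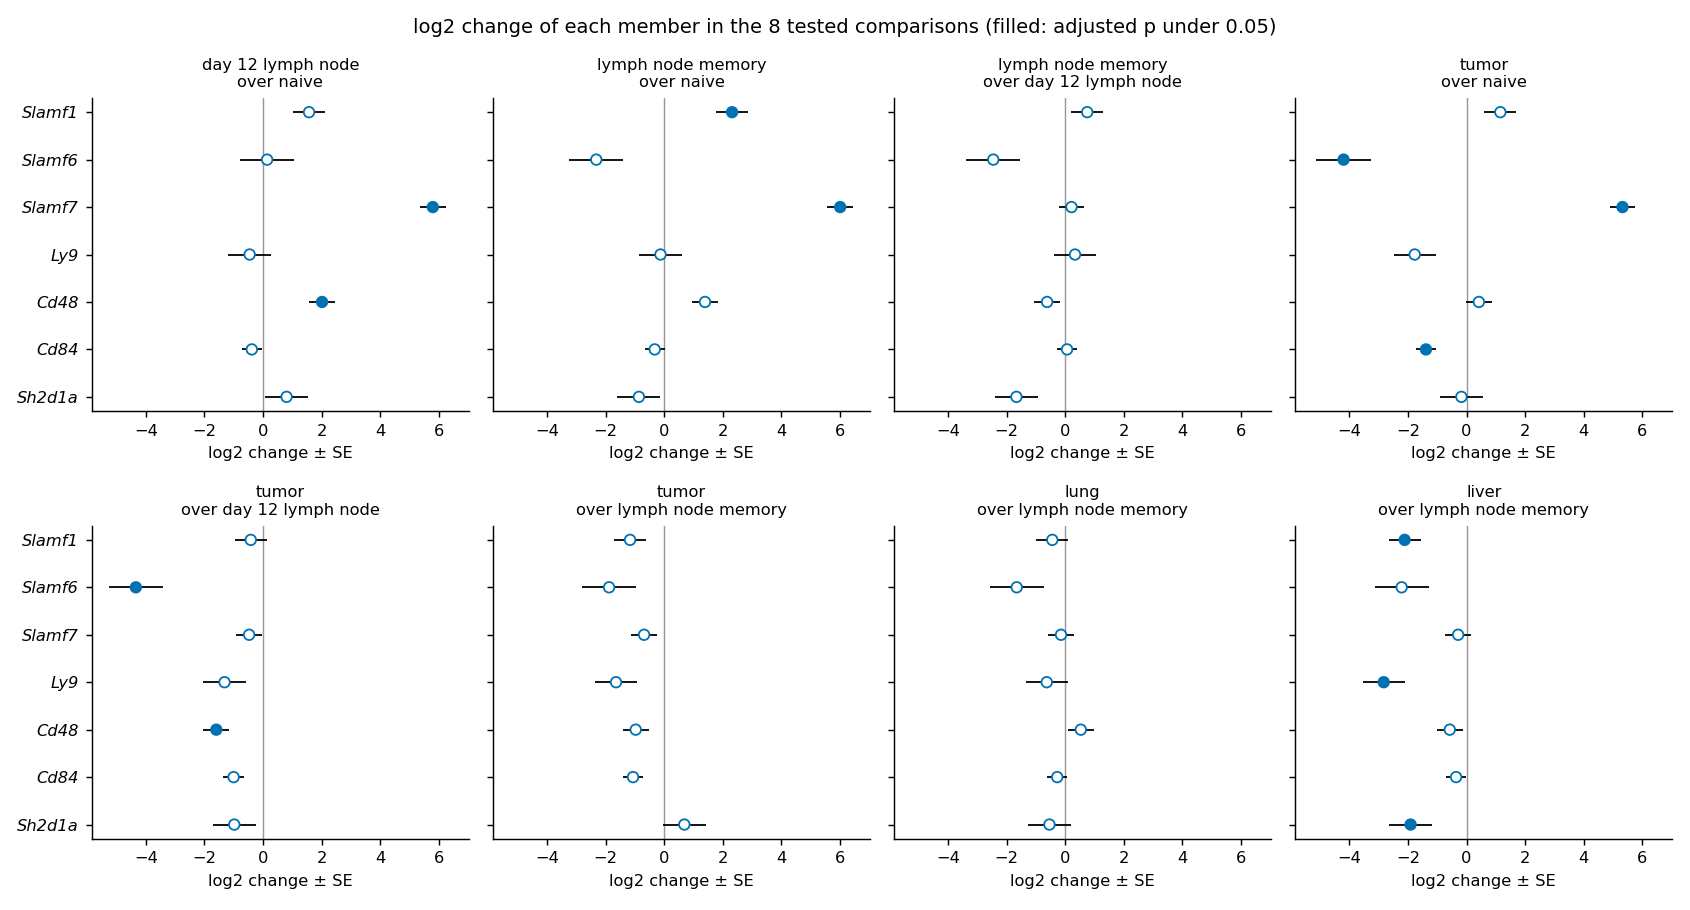
Change of each member on the log2(TPM + 1) scale in the 8 tested comparisons, with the SE of the fit as a line and filled points for an adjusted p under 0.05. Slamf7 is higher by 5.33 to 6.01 in the 3 comparisons with naive cells, and Slamf6 is lower by over 4 in tumor against naive cells and against the day 12 lymph node.

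Skin was compared without tests. Against spleen, Slamf6 was at 2.81 ± 1.60 TPM in skin and 101.0 ± 68.0 TPM in spleen, which is the difference that was known when the genes were chosen. Its log2 change was -4.52 ± 0.92. Sh2d1a was at 15.3 ± 8.42 TPM in skin and 72.3 ± 34.8 TPM in spleen, with -2.26 ± 0.73, and Cd48 at 364 ± 182 TPM in skin and 1076 ± 535 TPM in spleen, with -1.65 ± 0.45. These 3 members were below spleen without overlap and none was above, beside 9.09% of all genes without overlap in either direction. Slamf7 differed by 0.12 ± 0.44.

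Against lymph node memory cells, 4 members lay lower in skin without overlap, beside 20.6% of all genes. They were Slamf6 with -4.03 ± 0.92, Sh2d1a with -2.10 ± 0.73, Ly9 with -1.59 ± 0.72 and Cd48 with -1.23 ± 0.45. Against naive cells, Slamf7 was higher in skin by 5.76 ± 0.44, and Slamf6, Sh2d1a, Ly9 and Cd84 were lower without overlap, with Slamf6 at -6.35 ± 0.92. That makes 5 members, beside 36.1% of all genes. Both comparisons share the skin libraries.

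Set beside tumor, skin libraries were lower in Slamf6, at -2.15 ± 0.92, and in Sh2d1a, at -2.79 ± 0.73, both without overlap, beside 15.5% of all genes. The other 5 members overlapped between skin and tumor. Without skin library 4, 5 members had no overlap, and the added ones, Slamf1, Slamf7 and Cd84, lay higher in skin. Slamf1 was then at 70.2 to 91.0 TPM in skin against 18.6 to 30.7 TPM in tumor. Slamf7 was at 202 to 236 TPM against 58.0 to 148 TPM, and Cd84 at 39.1 to 53.8 TPM against 17.5 to 33.8 TPM. The share of all genes was not computed for that setting. Set beside lung, Cd48 at -1.75 ± 0.45 and Sh2d1a at -1.56 ± 0.73 were lower in skin without overlap, beside 6.7% of all genes. Without lung library 2, 4 members had no overlap, with Slamf6 and Ly9 also lower in skin.

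Skin library 4 had a T cell identity sum of 5618 TPM, against 25559 to 34547 TPM in the other 3 skin libraries. Its Slamf6 level was 1.48 TPM, beside 1.58 to 4.83 TPM in those 3. Its Slamf7, Slamf1 and Cd48 levels were further under theirs. Per 1000 TPM of T cell identity genes, Sh2d1a was at 0.630, 0.442, 0.832 and 0.826 TPM in the skin libraries and at 3.95 ± 0.477 TPM in tumor. Slamf6 on that scale was at 0.189, 0.0964, 0.0521 and 0.264 TPM in skin, under the tumor libraries at 0.440 to 0.904 TPM. The B cell genes summed to 24.9 to 130 TPM in skin, against 150 to 291 TPM in tumor and 725 to 7125 TPM in spleen, and their part in the difference between skin and spleen was not tested.

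Spleen cells against naive cells had Slamf7 higher by 5.64 ± 0.44, Cd48 by 1.82 ± 0.45 and Slamf1 by 0.72 ± 0.54, and Slamf6 and Cd84 lower by changes of -1.82 ± 0.92 and -0.89 ± 0.35. These 5 members did not overlap, beside 19.6% of all genes. Against lymph node memory cells, Slamf1 alone did not overlap and was lower in spleen, with -1.60 ± 0.54, beside 5.39% of all genes. Without spleen library 3 or library 4 there were 2 members without overlap. The added one was Cd48, higher in spleen, without library 3, and Ly9, lower in spleen, without library 4.

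**Figure D4:**
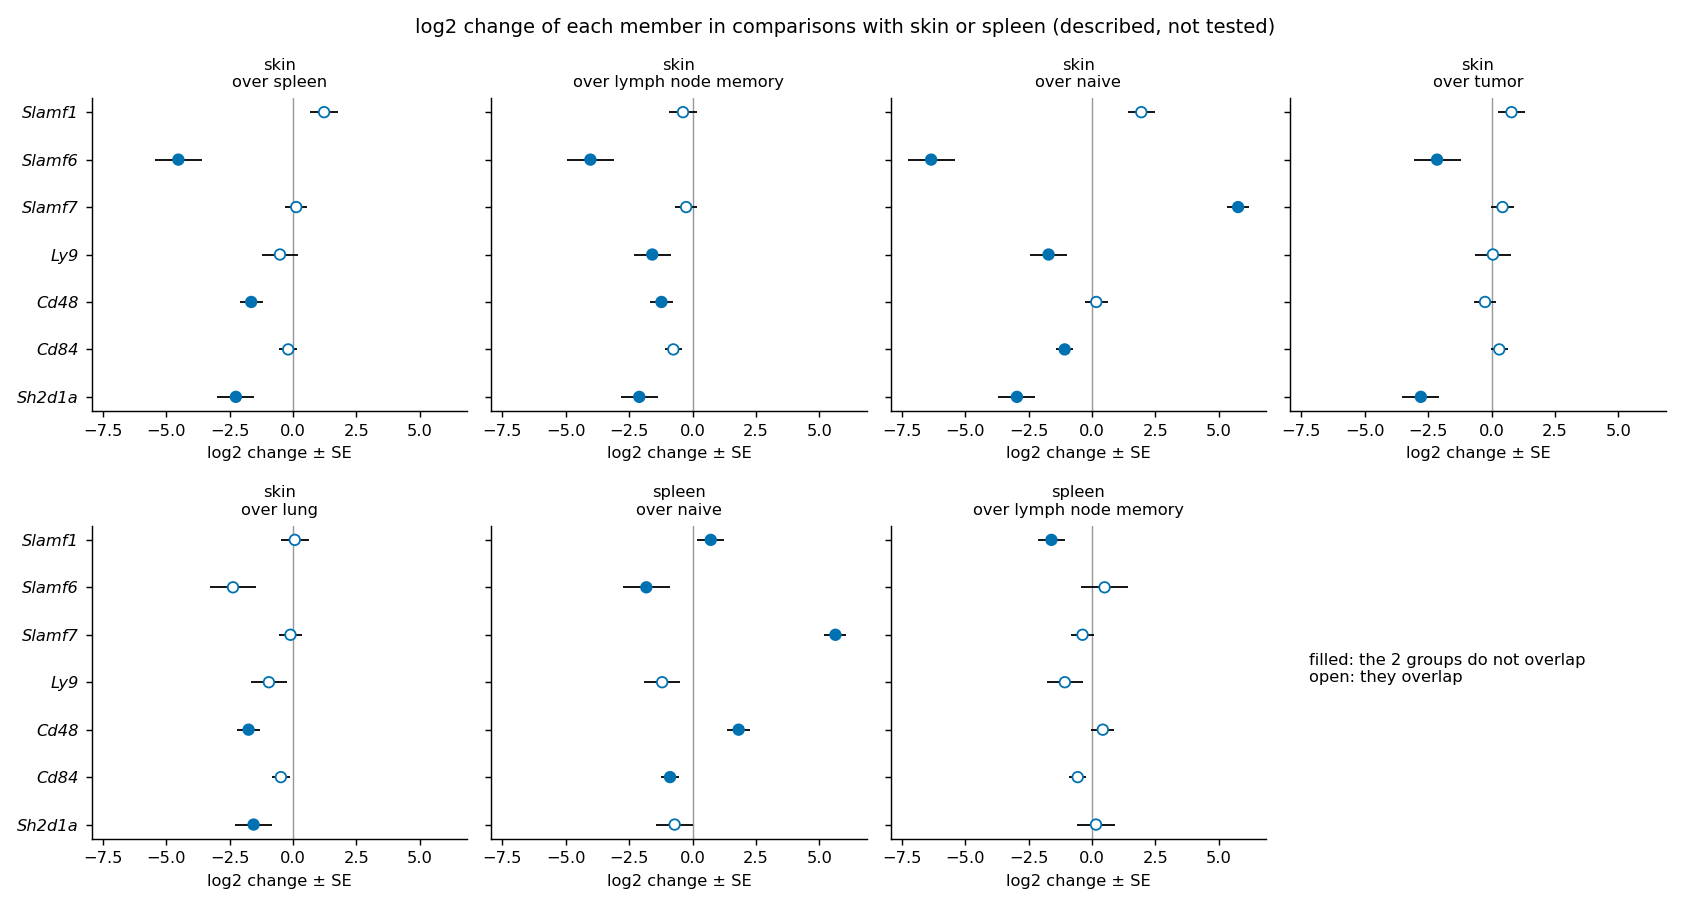
Change of each member on the log2(TPM + 1) scale in the 7 comparisons with skin or spleen, which were not tested, with the SE of the fit as a line and filled points where the libraries of both groups do not overlap. Slamf6 is at -4.52 in skin over spleen and -6.35 in skin over naive cells, and Slamf7 is at 5.76 and 5.64 in skin and spleen over naive cells.

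Cd244 was called higher in lymph node memory and tumor cells than in naive cells. It encodes the receptor 2B4, which CD48 binds, and was the 1 gene called among 5 tested SLAM receptors, partners and adaptors outside the 7 members. It was higher in lymph node memory cells than in naive cells by 4.12 ± 0.77 (adjusted p = 0.000553), at 35.0 ± 24.2 TPM in memory cells and 0.725 ± 0.0569 TPM in naive cells. In tumor it was at 41.8 ± 14.8 TPM, higher by 4.57 ± 0.77 than in naive cells (adjusted p = 8.1e-05) and by 2.88 ± 0.77 than in the day 12 lymph node, at 4.58 ± 0.124 TPM (adjusted p = 0.0194, but 0.0554 without tumor library 3 and 0.0833 with a pseudocount of 0.1 TPM). Against the day 12 lymph node, tumor cells thus had more Cd244 and less Cd48, although the Cd48 call was lost in several settings given above. Cd2, the other CD48 partner in mice, was at 543 ± 182 TPM in tumor and 517.5 ± 43.0 TPM in the day 12 lymph node. The remaining 4 tested genes, Slamf8, Slamf9, Sh2d1b1 and Cd2, had no call in the 8 comparisons, and Sh2d1b2 was under the filter on low values. Cd244 shares its locus with Ly9 on the opposite strand but no exonic bases.

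**Figure D5:**
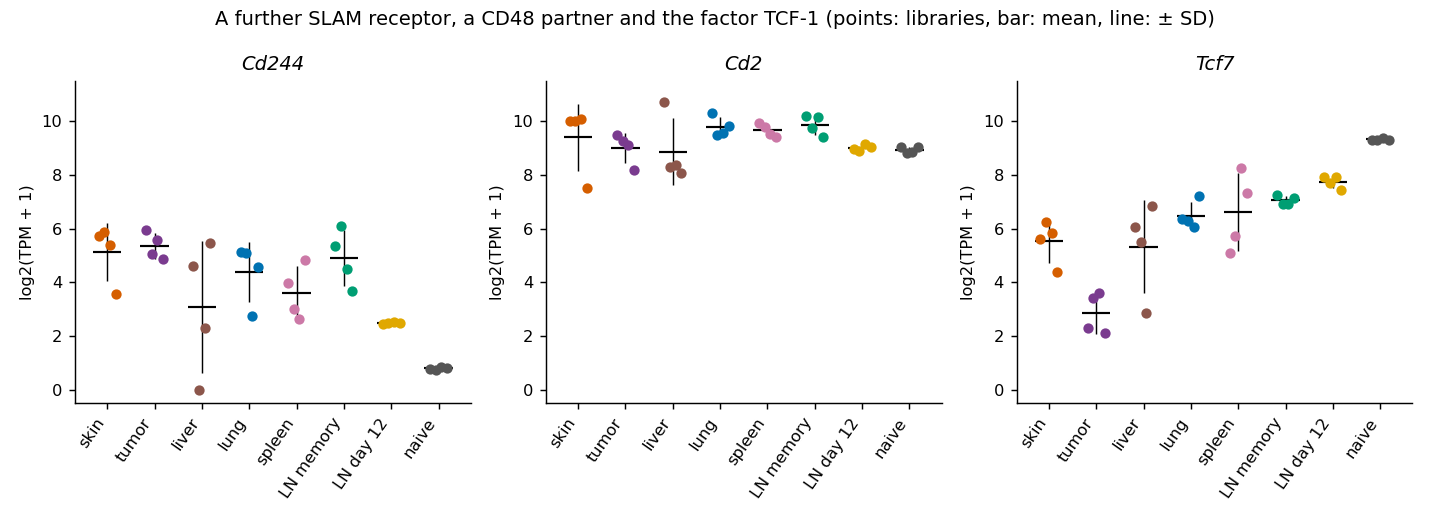
Levels of Cd244, Cd2 and Tcf7 as log2(TPM + 1) in each library, by group, with the mean as a bar and the SD as a line (n = 4). Cd244 is at 28.2 to 60.7 TPM in tumor and 0.66 to 0.79 TPM in naive libraries, and Tcf7 is at 3.28 to 11.1 TPM in tumor and 628 to 665 TPM in naive cells.

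Of 14 kinases and exchange factors that signal below SAP, none was called in day 12 lymph node against naive cells, in lymph node memory cells against either, or in lung. In tumor 3 were lower and none higher against naive cells, beside 15.3% of all genes called, among them Prkcq, a protein kinase C of the T cell synapse, with -1.57 ± 0.46 (adjusted p = 0.019, and 0.0788 without tumor library 4). Against the day 12 lymph node 2 were lower in tumor, beside 6.97% of all genes, of which Nfkb1, an NF-kappa-B subunit, had -1.55 ± 0.34 (adjusted p = 0.0042). Another 2 calls, both lower, came against lymph node memory cells, beside 7.7% of all genes. Fyn, the kinase that SAP recruits, was at 121 ± 38.0 TPM in tumor, 249.7 ± 21.8 TPM in the day 12 lymph node and 171 ± 9.88 TPM in naive cells, with no call. In liver 7 of the 14 were lower than in memory cells, beside the 32.2% given above.

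Among 8 phosphatases and inhibitory adaptors that bind SLAM receptor tails or act on the same signals, Inpp5d was called most often. It encodes the lipid phosphatase SHIP-1 and was at 85.0 ± 34.8 TPM in lymph node memory cells. This was higher than the 22.1 ± 2.27 TPM of the day 12 lymph node by 1.80 ± 0.40 (adjusted p = 0.00422). Tumor, at 32.6 ± 10.3 TPM, was lower than memory cells by a change of -1.33 ± 0.40 (adjusted p = 0.0388, up to 0.177 with 1 library left out, the call being lost without memory library 1 or 2 or tumor library 2, 3 or 4). The tyrosine phosphatases of the tails, Ptpn6 and Ptpn11, were not called in any comparison but for Ptpn6 in liver, lower by a change of -1.31 ± 0.43 (adjusted p = 0.0203).

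Of 10 genes used with Slamf6 to mark stem-like CD8 T cells, 7 were lower in tumor than in naive cells and 1 higher, beside 15.3% of all genes called. Against the day 12 lymph node 5 were lower and none higher, beside 6.97%, and against lymph node memory cells likewise 5 and none, beside 7.7%. Tcf7, which encodes the factor TCF-1, was at 6.94 ± 3.96 TPM in tumor and 215 ± 32.4 TPM in the day 12 lymph node, with -4.90 ± 0.61 (adjusted p = 2.57e-06). In lymph node memory cells against day 12, 2 were higher and 1 lower, beside 7.41% of all genes. The interleukin 7 receptor gene Il7r was higher there by 3.41 ± 0.42 (adjusted p = 4.76e-06). Of 12 genes used to mark effector or terminally exhausted cells, 11 were higher in tumor than in naive cells, beside 15.3% of all genes. Memory cells had 11 higher than naive cells, beside 6.52%, and the day 12 lymph node 8, beside 11.1%. Tumor against memory cells was mixed, with 4 higher and 2 lower, Cd101 and Cx3cr1, beside 7.7%. Pdcd1, which encodes the inhibitory receptor PD-1, was at 472 ± 118 TPM in tumor and 50.5 ± 6.33 TPM in the day 12 lymph node, with 3.17 ± 0.76 (adjusted p = 0.00853). Tcf7 and Slamf6 did not have the same lowest group, since Tcf7 was at 49.9 ± 22.9 TPM in skin, where Slamf6 was lowest.

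Across all 32 libraries, likeness of pattern was described with Pearson's r on log2(TPM + 1), without a test, since libraries of a group share their composition and the depth is unknown. Among the 21 pairs of members, Slamf6 and Sh2d1a had the highest r at 0.78, followed by Slamf6 with Ly9 and Ly9 with Sh2d1a, both at 0.73. Slamf6, Ly9 and Sh2d1a were all at 0 TPM in liver library 2, a shared low point that can raise these values. No r given here or below was recomputed without that library. Slamf1 and Slamf7 had 0.61, and Slamf6 and Slamf7 had -0.38, the lowest of all pairs. Sh2d1a, which had the highest r with Slamf6, is on another chromosome, and Slamf7 lies beside Ly9, with which its r was -0.21.

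Of 7234 other genes searched, the 3 most like Slamf6 were Gpr18 at 0.926, Atic at 0.925 and Sidt1 at 0.892. Gpr18, a G protein-coupled receptor gene, averaged 5.83 ± 4.02 TPM in skin and 149 ± 8.06 TPM in naive cells. The 3 most like Slamf7 were S100a6 at 0.972, Lgals3 at 0.970 and S100a4 at 0.958. Like Slamf7, all 3 had by far their lowest means in naive cells, where S100a6 averaged 1.45 ± 0.655 TPM and S100a4 0.463 ± 0.579 TPM. This shared low level of the naive libraries can raise these values, and r was not recomputed without them. Lgals3, the galectin-3 gene, averaged 467 ± 115 TPM in tumor, its lowest group after the naive cells, which had 0.288 ± 0.177 TPM. Slamf7 likewise had its lowest means in these groups. Sh2d1a was most like Exosc3, Tssc4 and Psma2, at 0.932, 0.929 and 0.929, and Slamf1 was most like Rab8b, Aim1 and Ikzf3, at 0.891, 0.888 and 0.882. The nearest genes were S100a10 for Cd48 at 0.910, Skiv2l2 for Ly9 at 0.955 and Slc35b3 for Cd84 at 0.882.

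Some members share their locus with other annotated genes, and the sources used here do not say whether counting used strand. Slamf7 shares 423 exonic bases with the antisense gene Gm37787, which was at 25.5 ± 6.09 TPM in lymph node memory cells and 0.230 ± 0.304 TPM in naive cells, and the levels of both may not be fully separate. Sh2d1a shares 1465 exonic bases with Tenm1, which did not exceed 7.55 TPM in any library. Slamf6 overlaps the antisense gene Gm37065 without shared exonic bases, and that gene was at 44.6 ± 24.4 TPM in skin and 43.8 ± 3.04 TPM in naive cells.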

How the data were processed

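RNA of sorted Pmel CD8 T cells was sequenced in bulk, with 4 libraries in each of 8 groups. The authors aligned reads with Bowtie to mm10, per the submitters' processing notes. Not given in the sources used here are its version, the annotation, how reads were counted and whether by strand. The deposited values are natural log (ln) values of TPM + 1, per transcript length, without counts or depth. They were converted back to TPM and then to log2(TPM + 1). Of 42409 genes above 0, 19738 had at least 1 TPM in 4 or more libraries and were tested, all 7 members among them. All groups entered 1 limma fit (version 3.58.1, R 4.3.3) with a variance trend and 24 residual degrees of freedom. This fit takes 1 spread per gene for all groups, although the groups differed in spread. Their residual SD on the log2 scale was 0.303 in day 12, 0.387 in naive, 0.615 in memory and 1.33 in liver libraries. The SE of Slamf6 was thus 0.925 in every comparison, against 0.320 for memory over naive fitted alone. A member that was not called is therefore not shown to be unchanged. Benjamini-Hochberg adjusted p-values under 0.05 were called. Comparisons with skin or spleen use the same fit without tests.

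The members and gene lists were chosen with earlier results of these data known. All members are named. Of other genes, up to 2 called ones per list and direction without overlap between groups were eligible, in order of change, and part of them is printed. Cd2, Fyn, Ptpn6, Ptpn11 and the skin level of Tcf7 were added after values were seen. Alternatives were no filter, a filter of 5 TPM, a pseudocount of 0.1 TPM, the 2 groups alone, array weights, weights per group, quantile normalization, leaving out each library in turn and a replicate block. A fit without the 6 libraries of the lowest T cell identity sums, under 0.5 of the median, and one with T cell identity as a covariate were added after the values were seen. The fit was tested on simulated data. Promoter sequences are from RefSeq, and positions of genes from GENCODE.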

Additional observations from a re-analysis of the deposited data

Results flagged for a closer look

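In 56 sets of 4 libraries (7 members in 8 groups), 5 had 1 library far from the other 3, with a gap to its nearest neighbour above the 95% limit of Dixon's test, as a share of the whole range on the log2(TPM + 1) scale. Chance gives about 1 in 20. In skin library 4, Slamf1 was at 9.41 TPM, against 70.2 to 91.0 TPM in the other skin libraries, a gap of 0.882 of the range. In the same library Slamf7 was at 46.3 TPM, against 202 to 236 TPM in the others, a gap of 0.904. In tumor library 4, Slamf1 was at 18.6 TPM, against 28.8 to 30.7 TPM, a gap of 0.874, and Cd84 was at 17.5 TPM, against 31.4 to 33.8 TPM, a gap of 0.885. Both libraries had low sums of the T cell identity genes, 5618 TPM in skin library 4 and 14025 TPM in tumor library 4, and the part of this in the 4 values was not tested. In day 12 lymph node library 1, Cd84 was at 61.9 TPM, against 54.5 to 55.5 TPM, a gap of 0.856. The T cell identity sum of that library was 28715 TPM, within the 28535 to 32881 TPM of its group.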

How the results depend on the processing

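Each of 56 tested member values was recomputed in 18 settings, 1008 values in all. Of these, 872 kept their direction and side of the threshold, 92 passed it anew, 25 no longer passed it and 19 changed sign. The number of members called went to 5 with the 2 groups alone in day 12 lymph node over naive, lymph node memory over naive, tumor over naive, tumor over day 12 and tumor over memory, to 4 in memory over day 12, and to 0 in liver over memory. With array weights it was 5, 6, 6, 5 and 7 in the same 5 comparisons, 4 in memory over day 12 and 1 in liver. With weights per group it was 5, 4, 5, 5 and 5, and 4 in memory over day 12. Without the 6 libraries in which T cell identity was low it was 4 in memory over naive, 3 in memory over day 12, 5 in tumor over naive, 3 in tumor over memory and 0 in liver, and 5 members had no overlap in skin over tumor and 2 in spleen over memory. With T cell identity as a covariate it was 5 in tumor over naive, 1 in tumor over memory and 0 in liver, and with a filter of 5 TPM 1 in tumor over memory. Leaving out 1 library gave 1 to 2 in tumor over day 12, 2 to 5 in liver, 2 to 5 without overlap in skin over tumor, 2 to 4 in skin over lung and 1 to 2 in spleen over memory. The cause was not tested. No sign change touched a called value except Sh2d1a in liver. With quantile normalization the sign turned for Slamf6 in day 12 over naive (-0.14), Cd84 in memory over day 12 (-0.012) and Cd84 in liver (0.12). With array weights it turned in lung for Slamf7 (0.056) and Ly9 (0.001). With the covariate it turned for Ly9 in memory over naive (0.063), Sh2d1a in tumor over naive (0.33), Slamf7 in lung (0.18), and in liver for Slamf7 (0.80), Cd48 (0.67) and Cd84 (0.10). Without those 6 libraries it turned for Sh2d1a in tumor over naive (0.036), and in liver for Slamf7 (0.84), Cd48 (0.87) and Sh2d1a (0.29). Leaving out 1 library gave -0.32 to 0.061 for Ly9 in memory over naive, -0.11 to 0.16 for Cd84 in memory over day 12, -0.38 to 0.036 for Sh2d1a in tumor over naive and -0.31 to 0.02 for Slamf7 in lung. All genes called ranged over the settings from 1557 to 11700 in day 12 over naive (2189 as reported), 887 to 6705 in memory over naive (1286), 816 to 9168 in memory over day 12 (1463), 2158 to 11341 in tumor over naive (3027), 774 to 10735 in tumor over day 12 (1376), 844 to 8937 in tumor over memory (1520), 1 to 578 in lung (91) and 410 to 7879 in liver (6347), with array weights highest in all but lung and liver.

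Replicate numbers were not taken as pairs, and the labels do not say what a number shares. Library 4 had the lowest T cell identity sum in skin, tumor, liver, spleen and lymph node memory cells. Of 112 pairs with the same number in different groups, 33 had deviations that correlated above 0.1 (median 0.018), and 11 of 32 libraries were closest to their own number. With the replicate block 3 members were called in day 12 over naive, 3 in memory over naive, 3 in tumor over naive, 2 in tumor over day 12, 4 in liver and 0 in the other 3 comparisons. Depth is unknown, so low values such as Slamf6 in skin carry an unknown counting error.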
